A study of Mus musculus with 5 samples.

Results

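Purinergic receptors and ectonucleotidases are the proteins with which a cell senses and destroys nucleotides outside its membrane. The genes followed here were 10: the ATP-gated channels P2rx1, P2rx3, P2rx4 and P2rx7, the P2Y receptors P2ry1, P2ry2 and P2ry6, the ectonucleotidases Entpd1 (CD39) and Nt5e (CD73), and the adenosine receptor Adora2b. Every array probe set annotated to exactly 1 of these genes was taken, which gave 12 probe sets for 9 of the genes, out of 20393 probe sets for 12394 genes on the array. Adora2b had no such probe set and has no value here. The genes were picked with their values on these arrays already known, so their differences between the cultures are described and not tested.

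The cells were ID8, a mouse ovarian surface epithelial cancer line that grows as peritoneal tumours with ascites. One group held parental ID8 cells kept in DMEM to which 10% fetal bovine serum (FBS) was added (3 arrays, replicates 1, 2 and 3). The other held ID8 cells kept for 7 days in DMEM with 10% ascites taken from mice bearing ID8 tumours (2 arrays, replicates 2 and 3). The labels leave unsaid whether FBS was also in the ascites medium and how long the FBS culture ran. They do not call the replicates separate cultures either, so a p value here covers the spread among arrays alone, and that spread may be technical.

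ATP leaves cells that are stressed, stretched or dying. Outside the cell it opens P2X channels, which pass sodium and calcium, and it binds P2Y receptors, which act through G proteins. CD39 strips ATP and ADP to AMP, and CD73 turns AMP into adenosine, which acts on its own receptors, A2B among them. In tumours this chain is known for turning a danger signal, ATP, into adenosine, which restrains immune cells.

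Values are deposited log2 array signals. Each is given per array, as mean ± SD, or as a difference, ascites mean minus FBS mean, on the log2 scale. The arrays had nearly equal distributions, with medians from 7.40 to 7.47. FBS replicates 1 and 2 differed by an SD of 0.117 over genes, the ascites arrays by 0.239, and FBS replicate 3 from each of the other FBS arrays by 0.427, so it stood apart from them. The deposited values carry no detection call. Across 8 lists of markers of cell types other than the ID8 lineage, the median levels lay between 4.18 and 6.11 in both cultures. A signal in or below that range was not shown to lie above background. Single markers in these lists read higher, such as Cd4 (7.01 in FBS, 6.96 in ascites) and Itga2b (7.86 and 7.87). The group means of P2rx1, P2rx7, P2ry2 and Nt5e were all lower than those of Itga2b. Their signals were therefore not shown to lie above background either. Of 42 marker genes measured in these lists, 0 rose and 1 fell by limma at an adjusted p below 0.05. The genes with the highest signal in these lists (Cd14, Cd4, Cd22, Kdr, Alas2, Itga2b, Runx1 and Ttr) did not pass. The ID8 lineage markers Krt8 (13.34 ± 0.18 in FBS, 12.40 ± 0.38 in ascites), Krt18 (13.39 ± 0.21 and 11.96 ± 0.28) and Krt19 (13.19 ± 0.04 and 12.31 ± 0.27) were well above that range in both cultures, but Krt18 and Krt19 fell (limma adjusted p = 0.0361 and 0.0428). Of the 8 lineage markers measured these 2 fell and 0 rose, with a median change of -1.43. Over all 12394 genes 2.59% fell and 2.69% rose by the same test. Bnc1 (-3.19), Upk3b (-2.30) and Wt1 (-1.43) did not pass, and neither did Krt7. The Krt7 signal in ascites (5.25) lay inside the range of the other cell types' marker medians. Krt7 on FBS replicate 3 (5.66) lay inside that range too, while FBS replicates 1 and 2 lay above it. Msln went the other way, from 12.14 ± 0.59 in FBS to 12.51 ± 0.30 in ascites (change 0.37), and did not pass. Its low FBS array was replicate 3 (11.46). The ascites arrays (12.30 and 12.72) lay on either side of FBS replicates 1 and 2 (12.45 and 12.51). In Krt7, Upk3b (12.66), Bnc1 (10.21) and Wt1 (11.83) FBS replicate 3 lay between the other FBS arrays and the ascites arrays. The lower signal of these markers was therefore not confined to the ascites arrays. The part of this lineage shift in the values below was not tested.

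P2rx3 stood out. It encodes P2X3, a fast-closing ATP channel known mainly from pain-sensing and other visceral sensory neurons, where it forms channels alone or with P2X2. Its signal was 5.37, 5.70 and 5.11 on FBS replicates 1, 2 and 3, and 9.75 and 10.26 on ascites replicates 2 and 3. The arrays of the cultures did not overlap, and each group lay close together compared with the gap between them. The group levels were 5.39 ± 0.30 (SD, n = 3) and 10.00 ± 0.36 (SD, n = 2), a difference of 4.61. Only 2 of 12394 genes had a larger rise. The FBS signal lay inside the range of the other cell types' marker medians, so no fold is given. P2rx3 had 1 probe set, so no second probe set on the array checks it. With FBS replicate 3 left out the difference was 4.47.

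The other channel genes had small differences. P2rx4 encodes P2X4, a channel of many epithelia and immune cells that also sits in lysosomes. Its probe set with the higher signal read 9.54, 9.46 and 9.75 in FBS and 9.39 and 9.27 in ascites. Both ascites arrays were below every FBS array, but the difference, -0.25, was smaller than the spread of 0.29 among the FBS arrays. The other P2rx4 probe set read 7.26, 7.24 and 7.24 in FBS and 7.24 and 7.07 in ascites, so there the groups met. That signal was below Itga2b (7.86 and 7.87) and was not shown to lie above background.

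P2rx7 encodes P2X7, which needs much ATP to open and is best known for driving interleukin release in macrophages. It read 6.45, 6.49 and 6.59 in FBS and 6.59 and 6.70 in ascites, a difference of 0.14. FBS replicate 3 and ascites replicate 2 had the same value. P2rx1 encodes P2X1, the channel of smooth muscle and platelets. Its probe set with the higher signal read 6.69, 6.72 and 6.72 in FBS and 6.97 and 6.72 in ascites. Only ascites replicate 2 was higher, and ascites replicate 3 equalled FBS replicates 2 and 3. The other P2rx1 probe set lay between 4.19 and 4.40 on the 5 arrays, with the groups overlapping and a difference of -0.08.

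**Figure D1:**
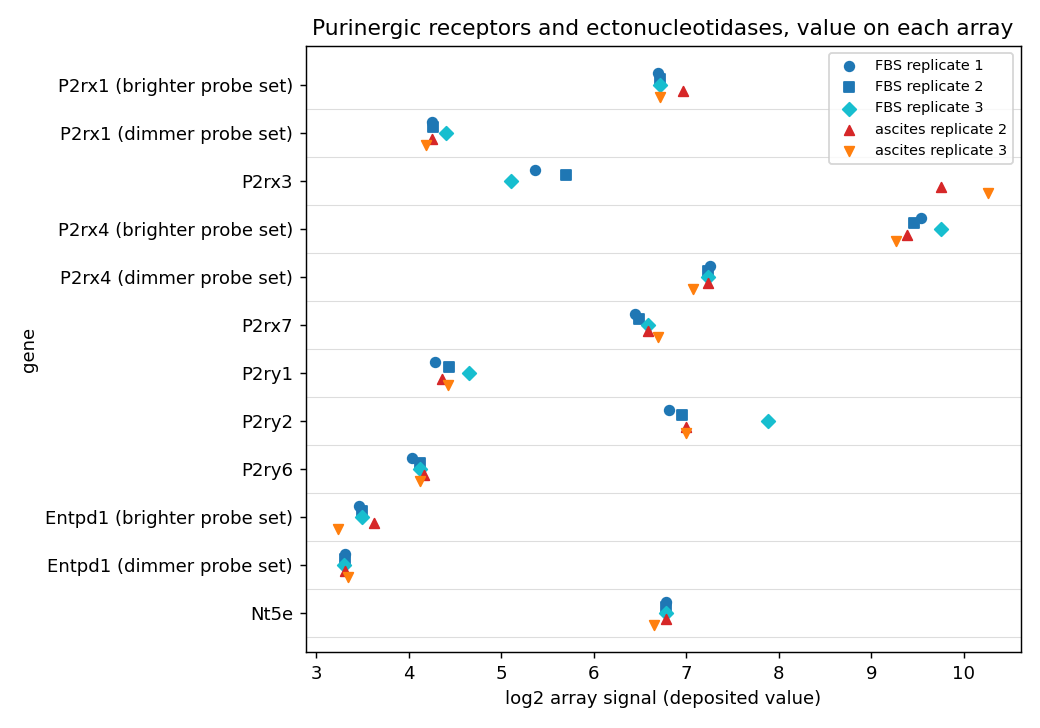
Log2 array signal (horizontal axis) of the 12 probe sets of the 9 measured genes (rows), with 1 point for each of the 3 FBS and 2 ascites arrays. P2rx3 is the row in which the ascites points (9.75 and 10.26) lie far to the right of the FBS points (5.11 to 5.70), while in P2ry2 FBS replicate 3 (7.88) lies apart from the other arrays.

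Among the P2Y receptors, P2ry2 showed a split that followed 1 array and not the culture. P2ry2 encodes P2Y2, which binds ATP and UTP, couples to Gq and is common in epithelia. Its signal was 6.81, 6.95 and 7.88 in FBS and 7.00 on both ascites arrays. FBS replicate 3 lay 1.0 above the mean of the other FBS arrays, and both ascites arrays lay between the FBS values. The difference was -0.21 with all arrays and 0.12 without FBS replicate 3, so its sign rested on that array.

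P2ry1, the ADP receptor P2Y1, read 4.29, 4.44 and 4.65 in FBS and 4.36 and 4.43 in ascites. P2ry6, the UDP receptor P2Y6, read 4.04, 4.12 and 4.12 in FBS and 4.17 and 4.12 in ascites. In both genes the groups overlapped, and the differences were -0.07 and 0.05. The P2ry1 and P2ry6 signals were inside or under the range of the other cell types' marker medians.

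The enzymes of the ATP-to-adenosine chain were at nearly constant signal. Entpd1 encodes CD39, the first enzyme of the chain. Its probe sets read between 3.24 and 3.63 and between 3.30 and 3.35 on the 5 arrays, with differences of -0.05 and 0.02, and both were below the range of the marker medians. The highest and the lowest value of the first probe set were the 2 ascites arrays themselves. Nt5e, which encodes CD73, read 6.78 on all FBS arrays and 6.78 and 6.65 in ascites, a difference of -0.07.

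Counted over all members, 2 of the 9 genes had arrays that did not overlap between the cultures, P2rx3 (higher) and P2rx4 (lower). Over all 12394 genes that share was 38%, of which 18.6% were higher and 19.4% lower in ascites. Of the 12 probe sets 2 did not overlap, beside 37.2% of all probe sets with 1 gene. The members' median difference was -0.05, beside 0.00 for all genes, and their median absolute difference was 0.14, beside 0.16. Of the 12 probe sets 10 had an absolute difference below 0.25, and 1, that of P2rx3, had a difference of at least 1. Over all genes the shares were 63.6% and, in either direction, 5.56%. Those shares take only the probe set of highest mean signal for each gene, while the 12 include dimmer second probe sets, so the units differ. Without FBS replicate 3, 6 of the 9 genes were higher in ascites and 3 lower, against 4 and 5 with all arrays, and 4 did not overlap, beside 55% of all genes.

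**Figure D2:**
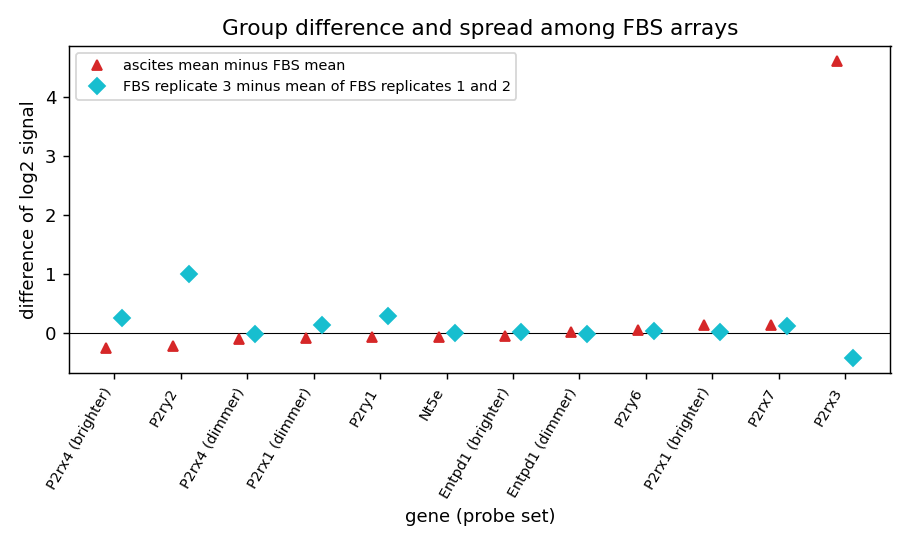
Difference of log2 signal (vertical axis) between the culture means (triangles, ascites minus FBS) and, for the same 12 probe sets, between FBS replicate 3 and the mean of FBS replicates 1 and 2 (diamonds). Only P2rx3 (4.61) has a triangle far from 0, and in P2ry2 the diamond (1.0) is farther from 0 than the triangle (-0.21).

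Many member values were equal to the 2 decimals deposited. In 5 of the 12 probe sets at least 3 of the 5 arrays carried the same value, with Nt5e at 6.78 on 4 arrays. The same was true of 20.3% of all genes. An SD of 0.00, as for Nt5e in FBS or P2ry2 in ascites, therefore reflects repeated values in the deposited table.

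The genes whose pattern over the 5 arrays was nearest to that of P2rx3 were found by the root mean square difference after each gene was centred on its own mean. They were Cyp3a13, a cytochrome P450 (0.29), Cth, which makes cysteine from cystathionine (0.30), Car6, a secreted carbonic anhydrase (0.50), Stbd1, a glycogen-binding protein (0.61), and Glrp1 (0.65). Cyp3a13 read 5.68, 5.82 and 5.50 in FBS and 9.91 and 9.81 in ascites. Cth read 7.44, 7.23 and 6.68 in FBS and 11.40 and 11.39 in ascites, so in P2rx3, Cyp3a13 and Cth alike FBS replicate 3 was the lowest array. In Car6 and Stbd1 FBS replicate 3 was the highest FBS array, and ascites replicate 3 was above ascites replicate 2, as in P2rx3. Likeness over 5 arrays is a description only.

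**Figure D3:**
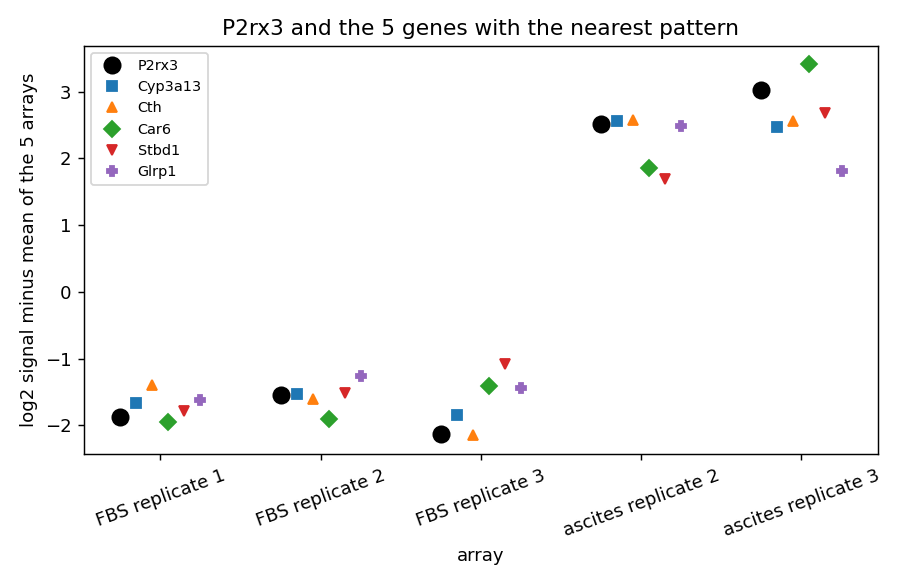
Log2 signal minus each gene's mean over the 5 arrays (vertical axis) for P2rx3 (large black points) and the 5 genes nearest to it, by array (horizontal axis). P2rx3, Cyp3a13 and Cth have their lowest value on FBS replicate 3, and the genes part most on ascites replicate 3.

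The measured genes near P2rx3 on its chromosome had smaller differences than P2rx3. This set was chosen after the values of P2rx3 were seen. Of the 5 protein-coding genes on each side, 5 were measured, with differences from -0.33 to 1.01. Slc43a3, a purine base transporter, rose from 10.32 to 11.34 (log2 change 1.01, SE 0.16, limma adjusted p = 0.0459). This call was lost under 8 of 14 alternatives, each left-out array among them (adjusted p from 0.0139 to 0.275 over all 14). The immediate neighbour Prg3 changed by 0.04 and Prg2 by -0.09. Tnks1bp1 (-0.33, SE 0.12, adjusted p = 0.195) and Aplnr (0.11) did not pass. P2rx4 and P2rx7 neighbour each other, as do P2ry2 and P2ry6, and both pairs had differences of opposite sign, though P2ry2 and P2ry6 were both higher in ascites without FBS replicate 3. Over the 44 measured neighbours of the 9 members, each counted once and members left out, 6 passed, or 13.6%, beside 5.28% of all genes. Slc43a3, Atp2a3, Rap2b and Aldh18a1 rose, and Mme and Tctn3 fell. The count was 0 without FBS replicate 1 or FBS replicate 2, with FBS replicates 1 and 2 averaged and with the replicate number as a block. In each of these settings 0 of all genes passed, so no neighbour could. Without FBS replicate 3 the count was 12, or 27.3%, beside 20.1% of all genes.

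Genes that serve the same pathway but are no members were tested in the limma fit over all genes. The lists named 71 genes, of which 53 were measured. Of these 2 fell and 0 rose, 3.77%, beside 5.28% of all genes (654 of 12394; 2.69% rose and 2.59% fell), and the median difference was -0.04. At an unadjusted p below 0.05 there were 12, or 22.6%, beside 24.3% of all genes. Without FBS replicate 3, 11 of the 53 passed (2 up and 9 down), beside 20.1% of all genes. Leaving out FBS replicate 1 or FBS replicate 2 left 0 (7 at an unadjusted p below 0.05 in each), and 0 of all genes passed there. The shares of 3.77% and 22.6% with all arrays were close to those of all genes.

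Both genes that passed are adenylyl cyclases, the enzymes that adenosine and some P2Y receptors steer to make cAMP. Adcy7 read 9.60, 9.53 and 10.03 in FBS and 8.30 and 8.02 in ascites. It was 2.95-fold lower in ascites (log2 change -1.56, SE 0.19, limma adjusted p = 0.0337), and its other probe sets changed by -1.78 and -0.12. Adcy6 read 10.84, 11.03 and 10.74 in FBS and 9.91 and 9.95 in ascites, 1.92-fold lower (log2 change -0.94, SE 0.10, limma adjusted p = 0.0266). In both genes all ascites arrays lay below all FBS arrays. Both calls held in 8 of 14 alternatives, with adjusted p from 0.00848 to 0.275 for Adcy7 and from 0.0125 to 0.267 for Adcy6. They were lost, among other settings, without FBS replicate 1 or FBS replicate 2. In those 2 settings 0 of all genes passed, so no gene could keep a call.

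The other 9 measured genes of the cAMP list did not pass. Prkaca, the catalytic subunit of protein kinase A, changed by -0.43 (SE 0.08, limma adjusted p = 0.0603). Gnas, the stimulatory G protein subunit, changed by -0.30 (SE 0.11), and passed without FBS replicate 3 (-0.39, limma adjusted p = 0.0400). Adcy2, Adcy3, Adcy4, Adcy8 and Adcy9 changed by between -0.08 and 0.07.

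**Figure D4:**
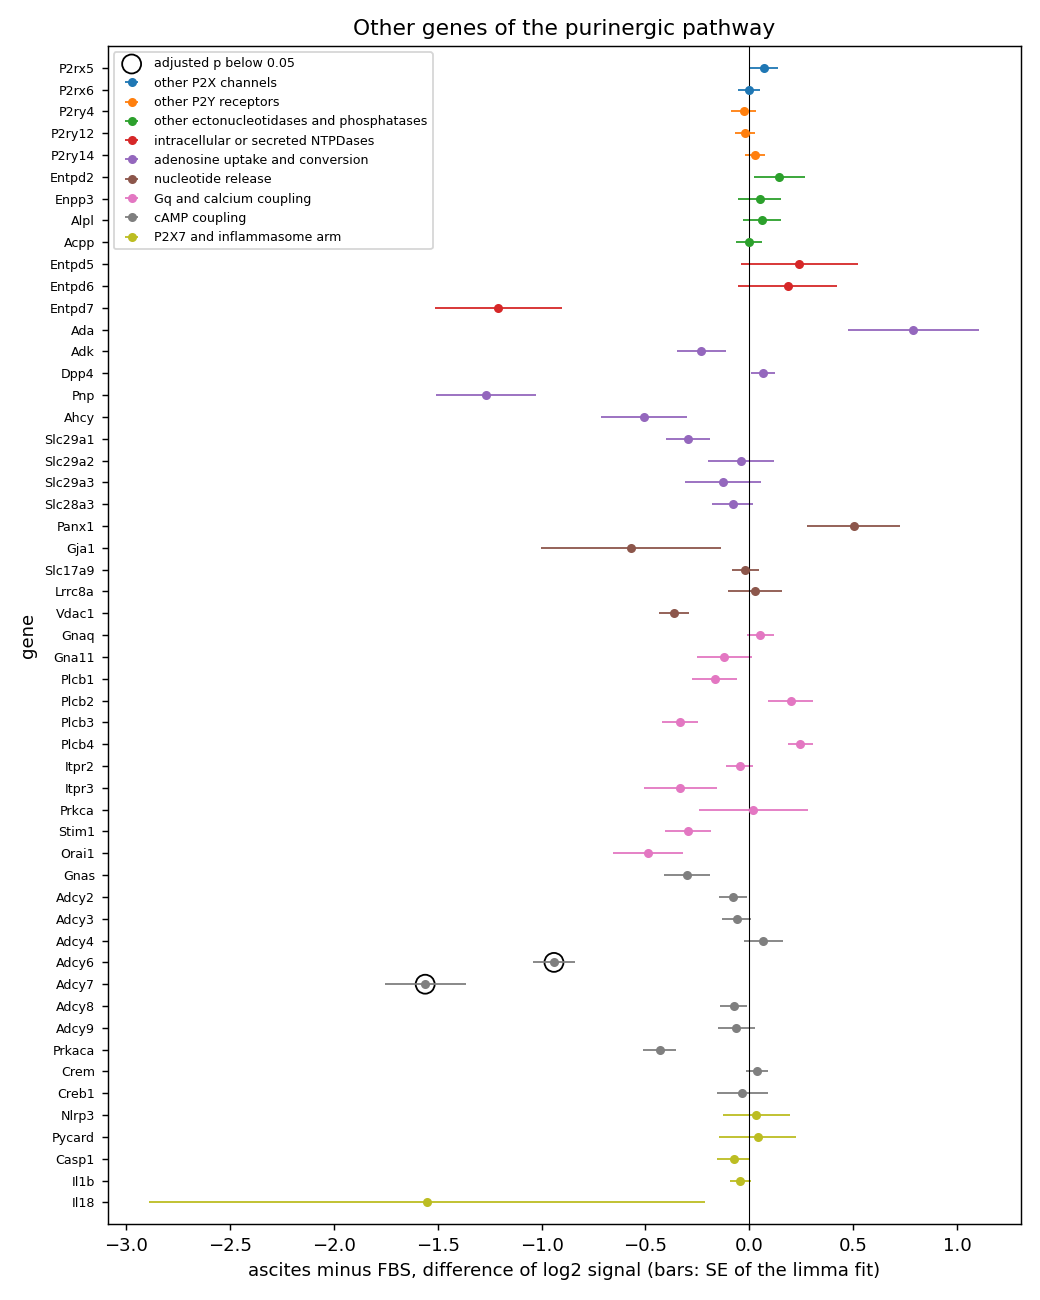
Difference of log2 signal between ascites and FBS (horizontal axis, bars show the SE of the limma fit) for the 53 measured genes of the pathway lists (rows, coloured by list). The circled points, Adcy6 (-0.94) and Adcy7 (-1.56), passed an adjusted p of 0.05, and the receptors and ectoenzymes at the top lie close to 0. The signals of those receptors and ectoenzymes were not shown to lie above background.

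The receptors and ectoenzymes outside the member list also had small differences. Except for Entpd2, their group means lay inside or below the range of the other cell types' marker medians (4.18 to 6.11). Entpd2 (6.4 in FBS, 6.5 in ascites) lay below Itga2b (7.86 and 7.87). None of these signals was shown to lie above background, so these differences cannot be told from background. Of the other P2X channels P2rx5 changed by 0.07 (SE 0.07, limma adjusted p = 0.591) and P2rx6 by 0.00, with 0 of 2 passing. P2rx2, the known partner of P2X3, had no value here. Of the other P2Y receptors 0 of 3 passed, with P2ry14, a UDP-sugar receptor, at 0.03 (limma adjusted p = 0.751), P2ry4 at -0.03 and P2ry12 at -0.02. None of the other 3 adenosine receptor genes listed had a value. Of the other ectonucleotidases and phosphatases 0 of 4 passed, and Entpd2, an ectoenzyme that mainly splits ATP, changed by 0.15 (SE 0.12, limma adjusted p = 0.539). No gene of these lists had an unadjusted p below 0.05.

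Among NTPDases that act inside the cell or are secreted 0 of 3 passed. Entpd7 had the smallest p, with 8.77, 8.90 and 9.61 in FBS and 8.07 and 7.70 in ascites (log2 change -1.21, SE 0.31, limma adjusted p = 0.106). Its groups did not overlap, but its other 3 probe sets changed by -0.21, -0.04 and 0.01. Without FBS replicate 3 it passed (-0.95, limma adjusted p = 0.0438).

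Genes that take up and convert adenosine did not pass either, 0 of 9, with 2 at an unadjusted p below 0.05. Pnp, which splits inosine and guanosine, had the smallest p. It read 12.05, 11.92 and 11.51 in FBS and 10.82 and 10.30 in ascites (log2 change -1.27, SE 0.24, limma adjusted p = 0.0653). Without FBS replicate 3 it passed (log2 change -1.43, adjusted p = 0.0364). Ada, which turns adenosine into inosine, read 6.66, 6.58 and 7.49 in FBS and 7.72 and 7.68 in ascites. FBS replicate 3 lay nearer the ascites arrays than the other FBS arrays, and without it the change was 1.08 (limma adjusted p = 0.00843), against 0.79 with all arrays (adjusted p = 0.234). The uptake carrier gene Slc29a1 changed by -0.30 (SE 0.11) and the adenosine kinase gene Adk by -0.23 (SE 0.12), of which Adk passed without FBS replicate 3 (-0.33, limma adjusted p = 0.0478).

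Of the nucleotide release genes 0 of 5 passed. Vdac1, a channel of the outer mitochondrial membrane, changed by -0.36 (SE 0.07, limma adjusted p = 0.0699), with 3 of its other 4 probe sets between -0.46 and -0.43. Panx1, the pannexin channel through which ATP leaves cells, read 8.67, 8.66 and 9.27 in FBS and 9.32 and 9.42 in ascites. Gja1, connexin 43, read 11.83, 11.71 and 10.57 in FBS and 10.76 and 10.84 in ascites. In both genes FBS replicate 3 was close to the ascites arrays. Without it Panx1 (0.71, limma adjusted p = 0.0130) and Gja1 (-0.97, limma adjusted p = 0.0123) passed.

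Of the Gq and calcium genes, through which P2Y1, P2Y2 and P2Y6 act, 0 of 11 passed and 4 had an unadjusted p below 0.05. Plcb4, a phospholipase C, had the smallest p and changed by 0.25 (SE 0.06, limma adjusted p = 0.0992), while Plcb3 changed by -0.33 (SE 0.09) and the store-operated calcium channel gene Orai1 by -0.49 (SE 0.17). Plcb3 passed without FBS replicate 3 (-0.39, limma adjusted p = 0.0437). Of the P2X7 and inflammasome genes 0 of 5 passed. The widest spread was in Il18, the cytokine that the inflammasome matures, with 11.09, 11.11 and 7.38 in FBS and 8.50 and 8.12 in ascites. No array was lower than FBS replicate 3. With all arrays the change was -1.55 (SE 1.34, limma adjusted p = 0.546), and -2.79 without that array (adjusted p = 0.00982). Nlrp3, Pycard, Casp1 and Il1b changed by between -0.08 and 0.04.

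Since P2X3 is known from sensory neurons, markers of those cells were set beside P2rx3. Of 10 listed, 6 were measured, and the median level of the list was 4.18 in both cultures. Scn9a, Scn10a, Tac1 and Isl1 lay between 3.18 and 4.35 as group means, with changes from -0.01 to 0.09. Runx1 was the highest of the list (8.80 ± 0.12 in FBS, 8.96 ± 0.07 in ascites), and Prph fell from 7.57 ± 0.18 to 6.22 ± 0.36 (limma adjusted p = 0.0438). None of the 6 rose. Platelet markers and myeloid markers, from cells in which P2X1, P2Y1 and P2X7 are abundant, had 0 genes risen or fallen in either list.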

How the data were processed

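The authors deposited 1 table of log2 signals, 1 value per probe set and array; the scale was judged from the values. Per the submitters' processing notes, they used Affymetrix Expression Console; neither its version nor its algorithm is given in the sources used here. Values were used as deposited.

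Of 22690 probe sets, 20393 had 1 gene in the platform annotation and 691 several. A further 1555 were unnamed, and the rest were controls (64, of which 13 had a gene). For a gene with several probe sets, that of the highest mean over the arrays was used. The cultures were compared by limma 3.58.1 under R 4.3.3 (a two-sided moderated test without covariates, 3 residual and 1.33 prior degrees of freedom, Benjamini-Hochberg over 12394 genes, threshold 0.05), after testing on simulated data. A RefSeq table (GRCm38.p6) gave only gene names and neighbours.

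Members and lists were chosen with earlier results of these data known. The text names every member, up to 4 called genes per list or otherwise the one with the smallest p, the 5 nearest patterns of any member differing by at least 1, and the highest marker. Other genes named were chosen after their values were seen. The 5 arrays limit the precision.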

Additional observations from a re-analysis of the deposited data

How the results depend on the processing

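The difference of P2rx3 stayed between 4.36 and 4.87 with single arrays left out and between 4.47 and 4.68 under the other 7 alternatives run for it. The counts of calls moved more. Among all genes 2612 passed with array weights, 0 to 2494 with single arrays left out, and 0 with FBS replicates 1 and 2 averaged as 1 sample (2128 at an unadjusted p below 0.05). Among the 53 pathway genes the count of 2 became 10 with array weights, 4 with quantile normalization, 0 with the averaged FBS arrays (7 unadjusted) and 0 to 11 with single arrays left out. With each of their 107 probe sets tested on its own 4 passed, in 3 genes (Adcy6, Adcy7 and, higher in ascites, Itpr2). Of the 9 members 2 to 5 did not overlap with single arrays left out, namely 4 when FBS replicate 3 was dropped (55% of all genes) and 5 when ascites replicate 2 (60.1%) or ascites replicate 3 (58.1%) was. The cause was not tested.

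With the replicate number as a block, 0 genes passed by limma among all genes (1892 unadjusted) and 0 among the pathway genes (6 unadjusted). Only numbers 2 and 3 occur in both groups. The difference of replicate 3 from replicate 2 in FBS correlated with that in ascites at r = 0.04 over genes, which are not independent. This r cannot decide whether arrays with the same number were paired, because it rests on a single difference per group. In FBS that difference had an SD of 0.427 over genes, against 0.117 for replicate 2 minus replicate 1. The labels do not say whether arrays with the same number were paired. For the 53 pathway genes and the 6 neighbours that passed, 742 of 816 values under alternatives kept their side of the threshold, 53 lost the call, 21 gained it and 0 turned a call's direction. All losses were in Adcy6, Adcy7 and the 6 neighbours, each of which lost its call under 6 to 9 of 14 alternatives. Most values that kept their side were of genes not called. Where 0 of all genes passed, such genes could not change side, so the pooled count does not measure how stable the calls were. Without detection calls, small changes at low signal, as for Entpd1, P2ry1 and P2ry6, cannot be told from background.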
